A study of Mus musculus with 9 samples.

Results

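The genes described here encode the killing proteins of a cytotoxic lymphocyte and proteins grouped with them. They are the granzymes Gzma, Gzmb, Gzmc, Gzmk and Gzmm, the pore-forming perforin Prf1, the granule membrane protein Nkg7, and the cathepsins Ctsw and Ctsc. They were chosen by gene symbol, and every probe set whose annotation named one of them was taken, which gave 9 probe sets, 1 for each gene, of 22626 on the array that are not controls (9 of 13152 genes). Transcripts of 3 kinds of sorted CD8+ T cells were assayed, each on 3 of 9 Affymetrix microarrays of the Mouse430A 2.0 type. Naive cells (CD44-lo/CD62L-hi) came from 2 pooled normal female C3H.SW mice for each array. Effector cells, which the labels call effector memory cells (CD44-hi/CD62L-lo), and postmitotic cells (CD44-lo/CD62L-hi) were each sorted from the pooled T cells of 4 male B6/SJL recipients. Those recipients had been lethally irradiated with 10 Gy and given T cell-depleted bone marrow and CD44-lo/CD62L-hi/CD8+ T cells of female C3H.SW donors, a transplant that leads to graft-versus-host disease (GVHD), and the sort followed 14 days later. Both recipient groups thus shared the irradiation, the transplant and the host, and the naive group had none of them. Effector and postmitotic cells were told apart by surface CD44 and CD62L alone, and the sort that defined postmitotic cells had the same gates as that of naive cells.

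A cytotoxic T cell stores its granzymes and perforin in lysosome-related granules and releases them onto a target cell, where perforin opens the membrane and the granzymes, which are serine proteases, cut proteins inside. Granzymes are made as inactive proenzymes that cathepsin C trims into their active form. Naive CD8+ T cells are known to hold little of these proteins and to load granules after activation, under T-box, RUNX and STAT family transcription factors.

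All values below are the authors' deposited log2 signals, on which a probe set with zero signal reads 6.64 and none can read under 5.64. A probe set was called where its limma adjusted p was under 0.05 over all 22626 probe sets. The 3 arrays of a group are called biological replicates in the labels, so p-values measure the spread between pools of mice. In sorted bulk RNA, fewer cells that hold a transcript and less of it per cell cannot be told apart. Array medians lay between 7.89 and 7.90, a likeness that the authors' quantile normalization sets in advance. Cd44 followed the sort, with means of 7.28, 11.11 and 7.33 in naive, effector and postmitotic cells. Male transcripts marked cells of the recipients on 2 arrays. The Y-linked Eif2s3y read 9.50 on effector replicate 3 and 11.47 on postmitotic replicate 3, and the remaining 7 arrays gave 6.43 to 7.02. The signals of Eif2s3y, Ddx3y, Kdm5d, Uty and the female transcript Xist summed to 8002 on postmitotic replicate 3, the lowest of all arrays. The sums were 8595 and 9318 on postmitotic replicates 1 and 2, 8777 to 9683 on effector and 9669 to 9907 on naive arrays. The share of recipient cells on an array was not estimated.

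The granzyme genes lie in clusters. In the RefSeq gene order of assembly GRCm38.p6, Gzma and Gzmk are neighbours on chromosome 13, and Gzmb and Gzmc are neighbours on chromosome 14, at the end of a run that also holds Gzme, Gzmd, Gzmg, Gzmn and Gzmf. Gzmm and Prf1 lie on chromosome 10, Nkg7 and Ctsc on chromosome 7, and Ctsw on chromosome 19. The promoters of the 4 clustered members are shown because each pair of neighbours is compared below. Gzma and Gzmk had like ranges over the arrays, and Gzmb and Gzmc had unlike ones. Each window runs from 250 bases before to 50 bases after the annotated start in RefSeq (GRCm38.p6). All 4 lie on the minus strand, at chr13:113100932-113101231 (Gzma), chr13:113180916-113181215 (Gzmk), chr14:56262285-56262584 (Gzmb) and chr14:56234608-56234907 (Gzmc), and are written 5′ to 3′ along the gene. Capitals mark matches, on either strand, to the letters searched, which were GGTGTGA for T-box factors, TGTGGT for RUNX factors, TGANTCA for AP-1, ACGTCA for one arm of the cAMP response element and TTCNNNGAA for STAT factors.
Gzma: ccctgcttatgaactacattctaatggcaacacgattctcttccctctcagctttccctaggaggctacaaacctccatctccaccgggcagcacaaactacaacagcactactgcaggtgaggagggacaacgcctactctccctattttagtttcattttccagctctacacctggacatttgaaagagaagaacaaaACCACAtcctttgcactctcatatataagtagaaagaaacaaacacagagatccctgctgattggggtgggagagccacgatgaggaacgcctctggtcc
Gzmk: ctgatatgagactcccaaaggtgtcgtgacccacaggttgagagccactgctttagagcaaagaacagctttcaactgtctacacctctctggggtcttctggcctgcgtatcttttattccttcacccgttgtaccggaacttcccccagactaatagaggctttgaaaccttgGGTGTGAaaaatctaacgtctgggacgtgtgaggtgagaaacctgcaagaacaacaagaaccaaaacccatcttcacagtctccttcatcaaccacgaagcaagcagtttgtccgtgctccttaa
Gzmb: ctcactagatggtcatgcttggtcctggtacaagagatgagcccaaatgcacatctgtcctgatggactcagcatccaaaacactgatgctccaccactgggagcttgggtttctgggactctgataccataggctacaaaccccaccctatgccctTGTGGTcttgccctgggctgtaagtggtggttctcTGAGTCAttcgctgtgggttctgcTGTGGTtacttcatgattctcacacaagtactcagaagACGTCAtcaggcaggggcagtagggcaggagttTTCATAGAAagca
Gzmc: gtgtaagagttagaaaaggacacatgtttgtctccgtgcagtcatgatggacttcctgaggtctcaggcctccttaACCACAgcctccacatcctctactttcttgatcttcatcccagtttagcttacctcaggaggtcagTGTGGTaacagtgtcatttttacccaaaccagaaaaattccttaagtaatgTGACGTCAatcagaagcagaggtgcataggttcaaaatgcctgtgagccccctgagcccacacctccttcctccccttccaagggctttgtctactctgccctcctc

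The RUNX letters were found in windows of 6 of the 8 members with a window in the table (Gzma, Gzmb, Gzmc, Gzmm, Prf1 and Nkg7) and in 16.8% of all 32817 promoter windows. In Gzmb they began at -93 and again at -34 from the start. The T-box letters were in windows of Gzmk, where they began at -75, and of Gzmm, Nkg7 and Ctsc, and in 3.98% of all windows. Among the members only Gzmb held the AP-1 letters, at -58, which 7.81% of all windows hold. The cAMP response element letters were in Gzmb, Gzmc and Prf1 (7.51% of all windows); in Gzmc the matches on both strands overlap at -57 and -55. The STAT letters were in Gzmb, Gzmm, Nkg7 and Ctsc (8.29% of all windows). The neighbouring Gzma and Gzmk windows shared no marked match. The Gzmc window had its longest unbroken match with Gzmg, at 46 bases, followed by Gzme at 44, and shared 9 bases at most with Gzmb beside it. A match of letters describes the sequence and was not tested as a site.

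In effector cells 8 of the 9 genes were higher than in naive cells and none was lower, where 12.4% of all probe sets were called higher and 13.6% lower (26% in either direction). The rises ran from 1.39-fold for Ctsc to 306-fold for Gzmb, and Ctsw alone was not called. In postmitotic cells the order of the genes was another: Gzmb was 38.3-fold above naive, Gzma 3.33-fold, Gzmk and Gzmm under 2-fold, Nkg7 and Ctsw 1.40-fold each, and Gzmc, Prf1 and Ctsc did not pass the test against naive. That made 6 of 9 higher and none lower, where 4.23% of all probe sets were called higher and 3.96% lower (8.19% in either direction). Against effector cells, postmitotic cells were lower for 7 genes and higher for Ctsw, where 9.68% of all probe sets were called lower and 10.4% higher (20% in either direction). The median difference over the 9 genes was 1.34 (log2) in effector minus naive, 0.49 in postmitotic minus naive and -1.16 in postmitotic minus effector, and over all probe sets -0.05, -0.01 and 0.03. These 3 comparisons share arrays, so they are not independent of each other. Arrays of the groups did not overlap for 8 of 9 genes in each of the 3 comparisons. Over all probe sets that share was 41.6% in effector minus naive (19.2% higher and 22.4% lower), 26.5% in postmitotic minus naive (13% higher and 13.6% lower) and 38.8% in postmitotic minus effector (20.7% higher and 18.1% lower).

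**Figure D1:**
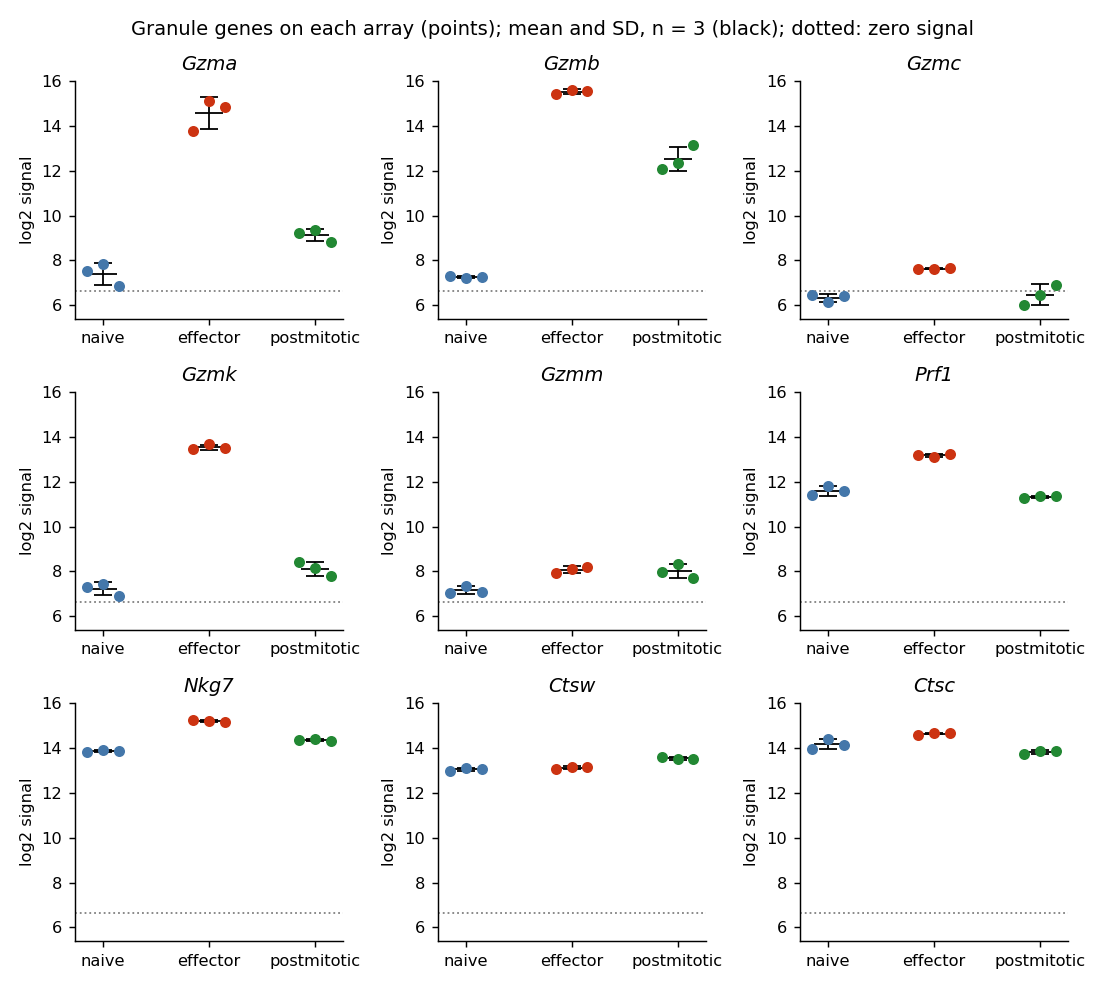
Deposited log2 signal of the 9 granule genes on each array (colored points: blue naive, red effector, green postmitotic), with the mean and SD of 3 arrays in black and the level of zero signal dotted. Gzma, Gzmb and Gzmk span the widest ranges, Gzmb keeps a mean of 12.52 in postmitotic cells, and Ctsw is highest in postmitotic cells.

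Granzyme B, a protease that cuts after aspartate and sets off death of the target cell, had the widest range of the members. Gzmb (probe set 1419060_at) read 7.30, 7.22 and 7.26 on the naive arrays, 15.41, 15.60 and 15.55 on the effector arrays, and 12.08, 12.36 and 13.13 on the postmitotic arrays. The 3 groups stood apart on every array, and postmitotic replicate 3, which carried the male transcripts, was the highest of its group. Gzmb rose by 8.26 in effector cells (log2, SE 0.237, adjusted p = 4.53e-07) and by 5.26 in postmitotic cells (SE 0.237, adjusted p = 7.23e-05) over naive cells. It was 7.99-fold lower in postmitotic than in effector cells (log2 -3.0, adjusted p = 7.53e-05). The difference between postmitotic and naive cells was called under each of 18 alternative settings and left-out arrays, with log2 values from 4.96 to 6.38 and an adjusted p of at most 0.00247. Without both arrays with male transcripts it was among those calls.

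Granzyme A, a protease that cuts after basic residues, showed a large rise in effector cells and a small one in postmitotic cells. Gzma (1417898_a_at) read 7.52, 7.83 and 6.86 on the naive arrays, 13.76, 15.11 and 14.85 on the effector arrays, and 9.20, 9.38 and 8.83 on the postmitotic arrays. Effector replicate 1 was the lowest of its group and the SD of 0.71 there was the widest of any member, but no array of one group reached another group. In effector cells the rise over naive was 144-fold (log2 7.17, SE 0.376, adjusted p = 5.55e-06), and postmitotic cells were 43.3-fold below effector cells (log2 -5.44, adjusted p = 4.12e-05). The 3.33-fold rise in postmitotic over naive cells (log2 1.74, adjusted p = 0.0289) missed the threshold in 7 of 18 alternatives, with an adjusted p of 0.102 without both arrays with male transcripts and 0.0916 without postmitotic replicate 2. Its log2 value stayed between 1.46 and 2.63.

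Granzyme K, another protease of this specificity, is encoded beside Gzma. Gzmk (1422280_at) read 7.32, 7.46 and 6.89 on the naive arrays, 13.45, 13.68 and 13.51 on the effector arrays, and 8.40, 8.16 and 7.78 on the postmitotic arrays. Both recipient groups lay above every naive array, the postmitotic ones by little. Gzmk rose 79.8-fold in effector cells (log2 6.32, SE 0.197, adjusted p = 6.52e-07), and in postmitotic cells it was 43.1-fold lower than in effector cells (log2 -5.43, adjusted p = 2.89e-06). The rise in postmitotic over naive cells was 1.85-fold (log2 0.89, adjusted p = 0.0308), and it missed the threshold in 9 of 18 alternatives, with an adjusted p of up to 0.105 when only the 6 arrays of both groups were fitted. Over the 9 arrays the centred Gzma and Gzmk values differed by a root mean square of 0.515, against 1.57 between Gzma and Gzmb and 1.84 between Gzmb and Gzmk. Some pairs of members with narrower ranges differed by less, such as Gzmc and Nkg7 (0.293).

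Granzyme M, which cuts after methionine and leucine, had a small rise over naive cells in both recipient groups. Gzmm (1449501_a_at) read 7.05, 7.37 and 7.07 on the naive arrays, 7.92, 8.09 and 8.22 on the effector arrays, and 7.98, 8.35 and 7.71 on the postmitotic arrays. Both recipient groups lay above the naive arrays, and their own values overlapped. The rise over naive was 1.89-fold in effector cells (log2 0.91, SE 0.180, adjusted p = 0.0062) and 1.80-fold in postmitotic cells (log2 0.85, adjusted p = 0.0266). Postmitotic minus effector was -0.06 (adjusted p = 0.865), with a 95% interval from -0.48 to 0.35. The sign of that last value changed with the arrays left out, to 0.16 without both arrays with male transcripts. The call in postmitotic over naive cells was lost in 7 of 18 alternatives, with an adjusted p of up to 0.0904, and that in effector over naive cells in none.

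Granzyme C, a rodent granzyme encoded next to Gzmb, was dim throughout. Gzmc (1421256_at) read 6.45, 6.13 and 6.43 on the naive arrays, 7.59, 7.62 and 7.65 on the effector arrays, and 6.0, 6.48 and 6.92 on the postmitotic arrays. All naive arrays and 2 of the 3 postmitotic arrays lay at or below zero signal, and the effector arrays lay above every other array. With the naive values set to zero signal, Gzmc was at least 1.97-fold higher in effector than in naive cells (measured means 7.62 and 6.34, adjusted p = 0.00278). Postmitotic minus effector was -1.16 (adjusted p = 0.00601), and with values below zero signal raised to it the effector mean was 1.85-fold above the postmitotic one. Postmitotic minus naive was 0.13 (95% interval -0.37 to 0.62, adjusted p = 0.784), and it turned to -0.10 without postmitotic replicate 3.

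**Figure D2:**
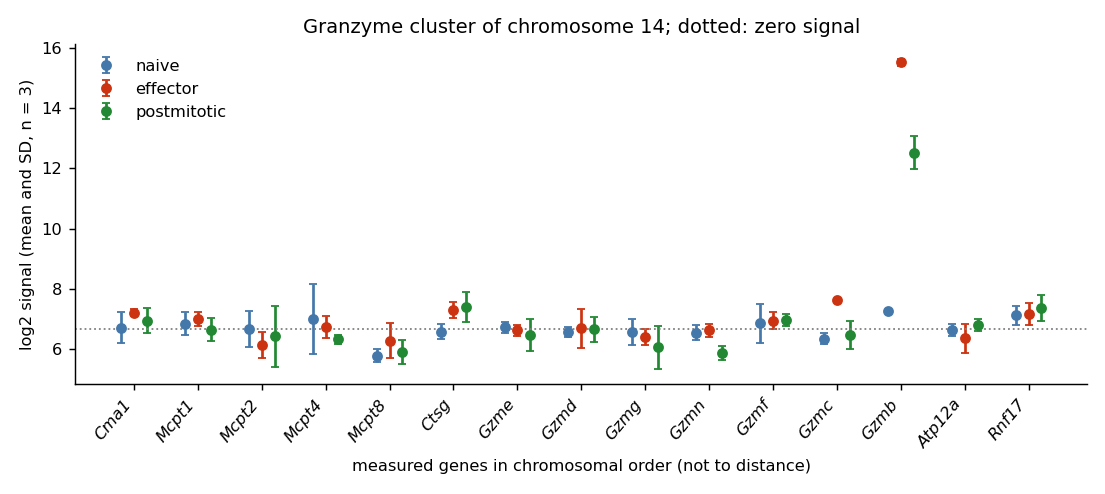
Mean log2 signal (points; bars SD, n = 3) of the measured genes around Gzmb on chromosome 14, in chromosomal order and not to distance, with zero signal dotted. Gzmb differs widely between its 3 group means (7.26, 15.52 and 12.52), and Gzmc shows a small rise in effector cells; heights are not comparable between genes.

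The other granzymes and proteases of that region stayed near background. Over the 7 probe sets of Gzmd, Gzme, Gzmf, Gzmg and Gzmn, the 63 array values lay between 5.64 and 7.37, and 34 of them were at or below zero signal. In a list of those 5 genes with the related granule proteases Ctsg and Cma1, which are known from myeloid and mast cells, none of 7 was called in effector or in postmitotic cells against naive cells. Gzmn was called lower in postmitotic than in effector cells (log2 -0.75, adjusted p = 0.0198), with both means below zero signal, and the call was lost when values below zero signal were raised to it (log2 -0.07, adjusted p = 0.44). Near-identical copies among these granzymes could share probes, and each probe set is given under the symbol its annotation names.

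Perforin, which forms the pore, did not follow Gzmb into postmitotic cells. Prf1 (1451862_a_at) read 11.40, 11.80 and 11.58 on the naive arrays, 13.20, 13.11 and 13.22 on the effector arrays, and 11.28, 11.36 and 11.37 on the postmitotic arrays. The postmitotic arrays lay just below every naive array, and the effector arrays lay above both. Prf1 rose 3.01-fold in effector cells (log2 1.59, SE 0.119, adjusted p = 3.7e-05) and was 3.58-fold lower in postmitotic than in effector cells (log2 -1.84, adjusted p = 2.87e-05). Postmitotic minus naive was -0.25 (95% interval -0.52 to 0.02, adjusted p = 0.248), and it stayed negative in all 18 alternatives, none of which called it. Only some of these alternatives can change that difference.

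Nkg7, a granule membrane protein that takes part in granule release, was graded over the groups with little spread. Its probe set (1450753_at) read 13.84, 13.90 and 13.88 on the naive arrays, 15.26, 15.21 and 15.15 on the effector arrays, and 14.36, 14.40 and 14.34 on the postmitotic arrays. Postmitotic arrays stood between the other groups without overlap. Nkg7 rose 2.52-fold in effector cells (log2 1.34, SE 0.086, adjusted p = 1.58e-05) and 1.40-fold in postmitotic cells (log2 0.49, adjusted p = 0.0135), and postmitotic cells were 1.80-fold below effector cells (log2 -0.85, adjusted p = 0.000261). The postmitotic rise over naive missed the threshold in 3 of 18 alternatives, with an adjusted p of up to 0.0786, and its log2 value moved only between 0.47 and 0.50.

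The cathepsins, cysteine proteases of the lysosome and secretory pathway, went opposite ways in postmitotic cells. Cathepsin W is found mainly in CD8+ T cells and NK cells. Ctsw (1422632_at) read 12.97, 13.10 and 13.07 on the naive arrays, 13.05, 13.17 and 13.14 on the effector arrays, and 13.60, 13.51 and 13.51 on the postmitotic arrays. Naive and effector arrays overlapped, and all postmitotic arrays lay above them. Ctsw was 1.40-fold higher in postmitotic than in naive cells (log2 0.49, adjusted p = 0.017) and 1.33-fold higher than in effector cells (log2 0.41, adjusted p = 0.0136), while effector minus naive was 0.08 (95% interval -0.13 to 0.29, adjusted p = 0.616). The call against naive cells was lost in 4 of 18 alternatives: without both arrays with male transcripts (adjusted p = 0.0938), with only 6 arrays (0.0829), and when naive replicate 3 (0.0545) or postmitotic replicate 1 (0.0527) was left out. The call against effector cells was lost in 3, which left out effector replicate 1 (0.0570), effector replicate 3 (0.0506) or both arrays with male transcripts (0.0851).

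Cathepsin C removes the propeptide of the granzymes. Ctsc (1416382_at) read 13.96, 14.40 and 14.15 on the naive arrays, 14.61, 14.68 and 14.67 on the effector arrays, and 13.75, 13.88 and 13.87 on the postmitotic arrays. Its order was effector, naive, postmitotic, without overlap, as for Prf1. The postmitotic arrays were 1.76-fold lower than the effector arrays (log2 -0.82, adjusted p = 0.00214). Effector cells were 1.39-fold above naive cells (log2 0.48, adjusted p = 0.022), which no longer passed once naive replicate 3 (0.0656), any one effector replicate (0.0526, 0.0719 and 0.0735) or both arrays with male transcripts (0.0947) were left out. Postmitotic minus naive was -0.34 (adjusted p = 0.143), and the variance prior with trend and robust called it lower (adjusted p = 0.013).

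**Figure D3:**
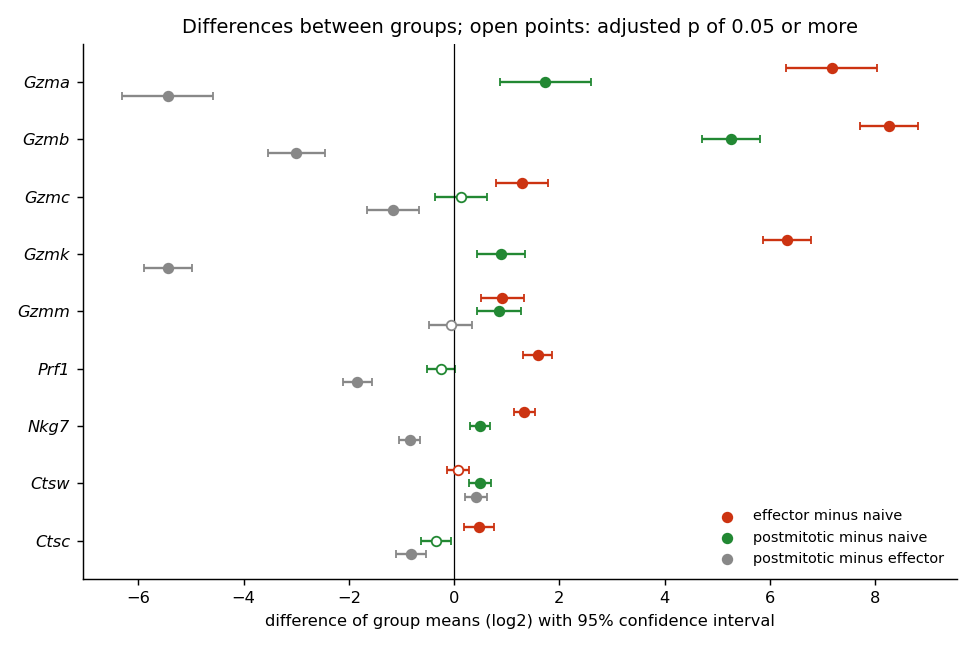
Difference of group means (log2, points) with its 95% confidence interval for each of the 9 genes; red is effector minus naive, green postmitotic minus naive and gray postmitotic minus effector, and open points have an adjusted p of 0.05 or more. The green point of Gzmb, at 5.26, is far from the other green points, which run from -0.34 for Ctsc to 1.74 for Gzma.

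Of the 6 calls of postmitotic against naive cells, all but that of Gzmb depended on the arrays or settings used. With 1 array left out, the count was 3 or 1 (naive replicate 1 or 3) and 2 or 3 (postmitotic replicate 1 or 2), and 4 to 6 without any one of the others. It was 2 when only the 6 arrays of the groups were fitted and 1 without both arrays with male transcripts. Gzmb was called in each of these fits, and all 6 differences stayed above 0. Over the whole array, the number of probe sets called in this comparison was 1854 with all arrays and 293 without both arrays with male transcripts. Whether recipient cells had a part in the granule values was not tested. On postmitotic replicate 3, where male transcripts were highest, Gzmb, Gzmc and Prf1 were the highest of their group and Gzma, Gzmk, Gzmm and Nkg7 the lowest.

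The distance of postmitotic cells from both other groups was also expressed as a position, with the naive mean at 0% and the effector mean at 100%. On the linear signal scale Gzmb stood at 8.88%, 10.9% and 18.7% on postmitotic replicates 1, 2 and 3. Gzma stood at 1.59%, 1.88% and 1.07%, and Gzmk at 1.58%, 1.14% and 0.578%. Nkg7 stood at 26.1%, 28.7% and 24.7%, and Prf1 below the naive mean at -9.89%, -7.69% and -7.35%. On every postmitotic array Gzmb stood further toward effector cells than Gzma and Gzmk, and Nkg7 further than Gzmb. Of the other members, Gzmm stood furthest, at 93.5% on average on the linear and 93.1% on the log2 scale. Its arrays were far apart, at 85.1%, 144% and 51.6% on the linear scale. Gzmc stood at 8.70% and 9.94%, and Ctsc at -55.9% and -70.6%. The Gzmc arrays were at -14.9%, 6.68% and 34.3% on the linear scale. The naive and postmitotic means of Gzmc lay below zero signal, so its position has little meaning. No position was computed for Ctsw. On the log2 scale the mean positions were 63.7% for Gzmb, 36.7% for Nkg7, 24.2% for Gzma, 14.1% for Gzmk and -15.8% for Prf1, so the order of Gzmb and Nkg7 depends on the scale. As a reference, 159 probe sets were called higher in effector cells with a rise of at least 3 (log2), the members among them included. Their median position was 8.38% on the linear and 29.1% on the log2 scale. On the linear scale 46 of the 159, Gzmb included, stood at or above Gzmb, and on the log2 scale 5. Gzmk had 28 of the 159 at or below it on the linear scale and 41 on the log2 scale. The position uses the same arrays as the differences and is given as a description.

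**Figure D4:**
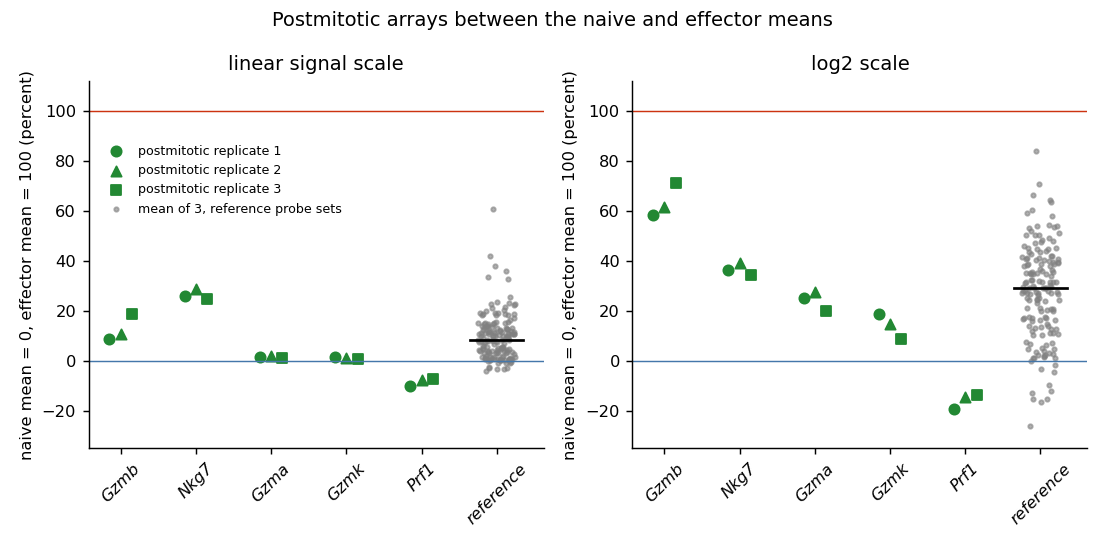
Position of each postmitotic array (green symbols) between the naive mean (0%, blue line) and the effector mean (100%, red line) for 5 granule genes, on the linear scale (left) and the log2 scale (right); gray points are the mean positions of the 159 reference probe sets and the black bar their median. Gzmb lies at 12.8% on average on the linear scale and 63.7% on the log2 scale, while Gzmk lies at 1.10% and 14.1%.

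Genes whose centred values were most like each member over the 9 arrays were ranked among 1627 genes with group means at least 1 log2 unit apart. Gzmk was closest to the inhibitory receptor gene Pdcd1 (root mean square difference 0.258), to the lectin-like receptor gene Klrg1 (0.277) and to the chemokine gene Ccl4 (0.327). For Gzma they were Pdcd1 (0.513), the interferon gene Ifng (0.521) and the galectin gene Lgals3 (0.596). For Gzmb, Serpina3g, an inhibitor of cathepsins, differed by 0.764, the ribonucleotide reductase gene Rrm2 by 1.07 and the chemokine gene Ccl5 by 1.10. Serpina3g read 7.75, 14.36 and 11.67 in naive, effector and postmitotic cells on average. The nearest to Prf1 were Ehd4, Ptprs and Marcksl1 (0.125 to 0.137), to Nkg7 Rfc5, Cers4 and Xpnpep1 (0.0627 to 0.104), and to Gzmm Eya4, Plxnc1 and Pla2g4b (0.138 to 0.188). Gzmc was nearest to Bcl7c, Niban2 and Aopep (0.165 to 0.176), Ctsw to Cirbp, Mrps34 and Ly6c1 (0.258 to 0.273), and Ctsc to Clcn5, Tnfaip8 and Fut8 (0.146 to 0.193). The measure favours genes with a range like that of the member, so these distances rank genes within one member only. Group means of Gzmm, Ctsw and Ctsc were themselves less than 1 log2 unit apart. Genes with a range as narrow as theirs were therefore not among those compared.

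The genes that act with granzymes and perforin were followed in lists, with the brightest probe set for each gene. The lists were drawn up with earlier results of these data known, and they are described by counts and medians. Among all genes on the array, 13.7% were called higher and 15.4% lower in effector than in naive cells, 4.94% higher and 4.52% lower in postmitotic than in naive cells, and 12.1% higher and 10.9% lower in postmitotic than in effector cells.

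Inhibitors of granzymes and cathepsins, which shield the killer cell from its own proteases, were all higher in effector cells (9 of 9, median log2 1.91). Serpinb9, the inhibitor of granzyme B, read 9.92, 9.70 and 9.73 on the naive arrays, 12.03, 12.33 and 12.26 on the effector arrays and 10.21, 10.32 and 10.16 on the postmitotic arrays. It rose by 2.43 in effector cells (log2, SE 0.118, adjusted p = 3.84e-06), and its value of 0.45 in postmitotic minus naive cells did not pass (adjusted p = 0.0549), although no postmitotic array overlapped the naive ones. Its relatives Serpinb9b and Serpinb6b rose in effector cells by 2.81 and 3.92. In postmitotic cells 4 of 9 were higher than in naive cells (median 0.45): Serpina3g by 3.92, Serpinb1a by 2.22, Serpinb6b by 1.09 and Cst7 by 0.60. Cst7 encodes cystatin F, an inhibitor of cathepsin C, and its postmitotic call (adjusted p = 0.0487) was lost in 12 of 18 alternatives. Serpinb1a, an inhibitor of neutrophil granule proteases, read 6.34, 6.48 and 6.39 on the naive arrays, 6.73, 7.49 and 7.72 on the effector arrays and 8.75, 8.85 and 8.27 on the postmitotic arrays. Like Ctsw it was highest in postmitotic cells, by 1.31 (log2) over effector cells (adjusted p = 0.00807), while the other 8 inhibitors were lower there than in effector cells. The naive arrays of Serpinb1a lay below zero signal, as did the naive mean of Serpinb9b (6.54), so their differences from naive cells are approximate. The Serpinb1a call in effector over naive cells (log2 0.91, adjusted p = 0.0323) was lost in 11 of 18 alternatives, and its call in postmitotic over naive cells in none.

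Granule matrix and lysosome genes were mixed, with 8 of 16 measured higher and 2 lower in effector cells (median 0.47). Srgn, which encodes the proteoglycan core to which granzymes bind, rose by 0.53 (adjusted p = 0.00357) and was at -0.10 in postmitotic minus naive cells (adjusted p = 0.562). The lysosomal proteases Ctsb and Ctsd rose by 1.54 and 1.08 and the membrane protein gene Lamp2 by 1.26. Ctsl, the gene of cathepsin L, fell by 2.46 in effector cells (adjusted p = 6.21e-06), and Lamp1, whose protein marks released granules at the cell surface, fell by 0.57 (adjusted p = 0.00634). In postmitotic cells 2 were higher than in naive cells, Ctsz by 0.70 and Ctsa by 0.52, and Ctsl was lower (log2 -0.62, adjusted p = 0.0276). Those calls were lost in 8, 10 and 9 of 18 alternatives, with an adjusted p of up to 0.0905 (Ctsz), 0.117 (Ctsa) and 0.139 (Ctsl). Ctsh was called only against effector cells, with a postmitotic minus effector value of -1.18.

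Genes of granule transport and release gave 6 of 25 measured higher and 1 lower in effector cells (median 0.17). The 4 widest rises were those of the Rab27 partners Sytl2 (3.55) and Sytl3 (2.50), the vesicle fusion gene Vamp8 (1.63) and Rab27a, the small GTPase that docks granules (1.13, adjusted p = 0.0314). The Rab27a call was lost in 7 of 18 alternatives, with an adjusted p of up to 0.0978. Of these, 5 left out a single array, namely naive replicate 1 or 3 or any effector replicate. In postmitotic cells Sytl3 alone was higher than in naive cells (log2 1.13, adjusted p = 0.0136, lost in 2 of 18 alternatives). Sytl2 read 8.55, 8.07 and 8.64 on the naive, 11.91, 12.01 and 11.97 on the effector and 8.04, 7.90 and 7.68 on the postmitotic arrays, so that postmitotic arrays lay below the naive ones without passing the test (adjusted p = 0.0838). Vamp7 was lower in postmitotic than in effector cells (log2 -0.68, adjusted p = 0.0253), a call lost in 6 of 18 alternatives (adjusted p up to 0.117).

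Killing without granules was represented by 6 genes of death ligands and cytokines, of which 3 rose and 2 fell in effector cells. Fasl, the ligand of the death receptor Fas, read 6.87, 7.07 and 6.74 on the naive, 12.95, 12.88 and 12.99 on the effector and 6.66, 7.34 and 7.41 on the postmitotic arrays. It rose by 6.05 in effector cells (adjusted p = 8.28e-07), and postmitotic arrays overlapped the naive ones (log2 0.24, adjusted p = 0.516). Ifng, the gene of interferon gamma, rose by 7.72 in effector and by 2.04 in postmitotic cells over naive cells (adjusted p = 0.000732). The death ligand gene Tnfsf10 rose by 1.42 in effector cells, a call lost in 2 of 18 alternatives (adjusted p up to 0.0503). The lymphotoxin genes Ltb and Lta fell in effector cells by 1.49 and 0.90 and were not called in postmitotic cells.

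Among 17 measured genes whose proteins granzymes are known to cut, 5 were higher and 3 lower in effector cells, with a median of 0.07. Among them the nuclear lamin gene Lmnb1 rose by 1.43 and the death agonist gene Bid by 1.14, while Numa1 fell by 0.91 and Anp32a by 0.79. In postmitotic cells 2 were higher than in naive cells, Apex1 by 0.50 and Nme1 by 0.46, and Numa1 and Anp32a were lower (log2 -0.64 and -0.40). These calls were lost in 11 of 18 alternatives for Apex1, 11 for Nme1 and 13 for Anp32a, and in none for Numa1.

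Of 16 measured regulators of the granule genes, 10 rose and 3 fell in effector cells (median 1.29), and 4 rose and 1 fell in postmitotic cells (median -0.04). Tbx21, which encodes the T-box factor T-bet, read 8.12, 8.20 and 8.06 on the naive, 12.41, 12.66 and 12.59 on the effector and 11.33, 11.26 and 11.19 on the postmitotic arrays. All 3 groups stood apart, and the rise over naive was 4.43 in effector (adjusted p = 1.85e-07) and 3.13 in postmitotic cells (log2, SE 0.105, adjusted p = 1.56e-05). Eomes, the related T-box factor gene, read 11.34, 11.25 and 11.22, then 13.54, 13.38 and 13.48, then 11.76, 11.61 and 11.68 in the same order. Its rise was 2.20 in effector cells and 0.41 in postmitotic cells (adjusted p = 0.0367), and the latter call was lost in 11 of 18 alternatives. Prdm1, the gene of Blimp-1, rose by 3.41 in effector cells and gave -0.00 in postmitotic minus naive cells (adjusted p = 0.995). Irf4 and Id2 rose by 3.52 and 1.87 in effector cells and gave 0.70 (adjusted p = 0.302) and -0.35 (adjusted p = 0.194) in postmitotic minus naive cells. Hopx, a homeodomain gene, was highest in postmitotic cells (log2 1.63 over naive and 0.65 over effector cells, adjusted p = 0.00272 for the latter), as Ctsw and Serpinb1a were. Il2rb, a receptor chain for IL-2 and IL-15, rose by 2.65 in effector and 0.69 in postmitotic cells, the latter a call lost in 5 of 18 alternatives (adjusted p up to 0.109). The dim Runx3 probe set did not pass in any comparison (log2 -0.25, -0.17 and 0.08), and Stat5b was lower in effector and postmitotic than in naive cells (log2 -0.51 and -0.53). The Stat5b calls were lost in 1 of 18 alternatives for effector cells, where the mean of its probe sets gave -0.17, and in 7 for postmitotic cells (adjusted p up to 0.116).

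A list of 6 factors of naive cells went the other way, with 6 of 6 lower in effector cells (median log2 -1.88). Lef1, Bach2 and Tcf7 fell by 2.91, 2.70 and 2.18 there, and Foxo1 and Klf2 by 1.59 and 1.47. In postmitotic cells 2 of 6 were lower than in naive cells (median -0.24), Foxo1 by 0.56 and Bach2 by 0.53, and the Bach2 value turned to 0.05 when all its probe sets were averaged. The Foxo1 call was lost in 4 of 18 alternatives (adjusted p up to 0.0951) and the Bach2 call in 9. Tcf7 and Lef1 were at -0.15 (adjusted p = 0.598) and -0.22 (adjusted p = 0.799), and all 6 were higher in postmitotic than in effector cells.

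**Figure D5:**
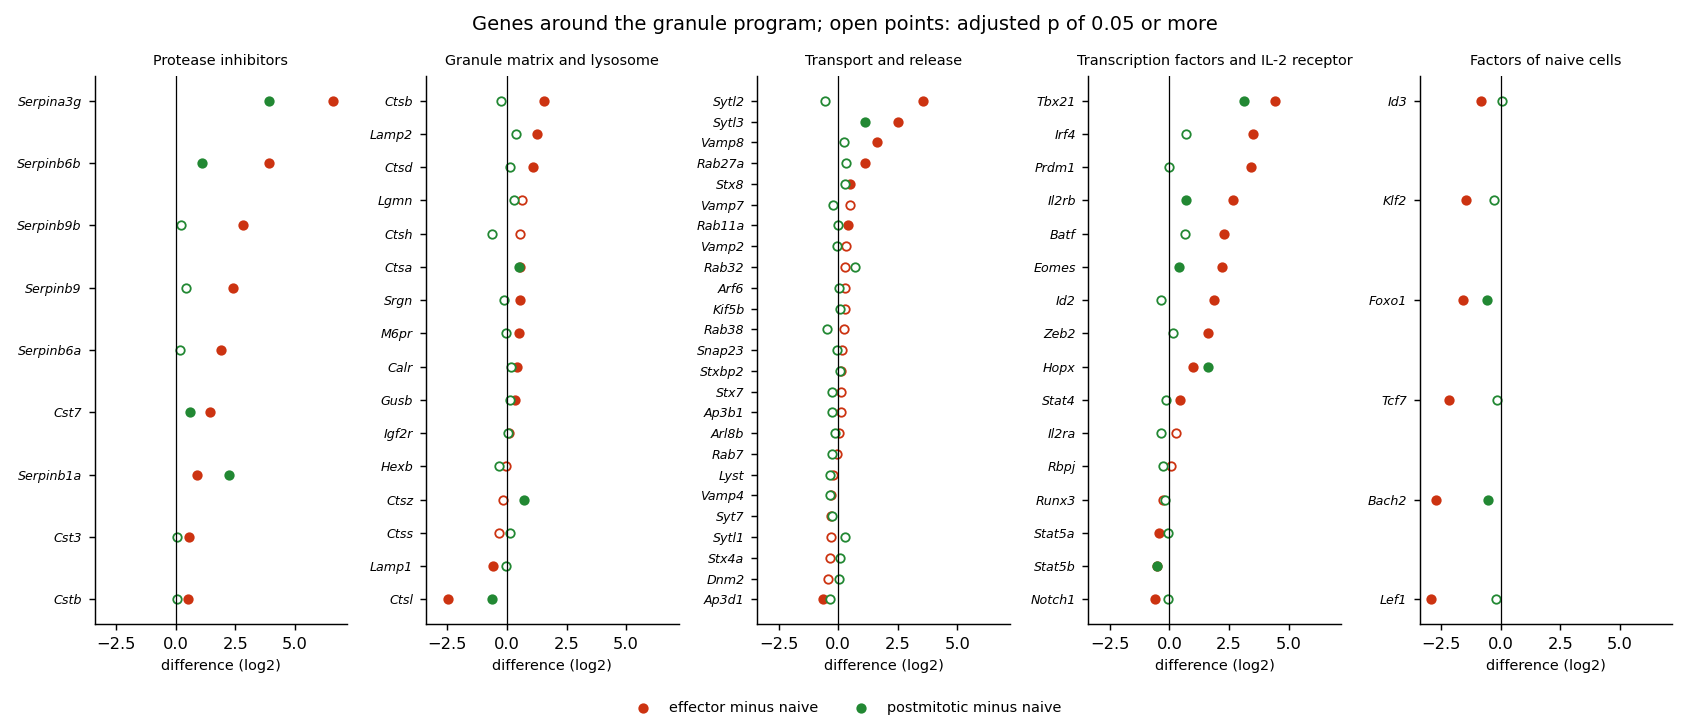
Difference from naive cells (log2) for effector (red) and postmitotic (green) cells, for the genes of 5 lists; open points have an adjusted p of 0.05 or more. Serpina3g and Tbx21 are furthest from 0 in postmitotic cells, at 3.92 and 3.13, while Prdm1 and Sytl2 have filled points for effector and open points for postmitotic cells.

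Markers of other cells were examined beside the granule genes. Of 8 measured NK and innate-like markers none was called in any comparison, and their summed signal was 307 to 470 on the naive, 451 to 1111 on the effector and 224 to 560 on the postmitotic arrays. Klrb1c, an NK receptor gene, averaged below zero signal in every group (5.96, 5.78 and 5.64). Ncr1 did so on the naive and effector arrays (6.24 and 6.62). Means at or below zero signal numbered 4 of 8 for the naive group and 3 of 8 for each recipient group. The remaining group means of these markers lay above it, and 7 of the 8 markers averaged under 8 (log2) over all 9 arrays. None of 8 mast cell and basophil markers was called, with sums of 168 to 345, 266 to 339 and 93.7 to 215. Of 13 myeloid markers, Cd68 and Ly86 were higher and Cd14 lower in effector than in naive cells, and the sums were 2534 to 3235, 2998 to 6997 and 1128 to 3087. In postmitotic minus effector 3 of the 13 myeloid markers were called lower and none higher. The myeloid and the NK sums were both highest on effector replicate 2 (6997 and 1111). On that array Gzma, Gzmb, Gzmk, Ctsw and Ctsc were also the highest of their group. Prf1 was the lowest there, and Gzmc, Gzmm and Nkg7 lay in between. The part of such cells in the granule values was not tested. For 6 measured T cell markers the sums were 68072 to 68738, 73826 to 75280 and 64874 to 68520. Of 4 CD4 T cell markers, 1 was higher in effector than in naive cells and 1 lower in postmitotic than in effector cells. Of 7 B and plasma cell markers, 1 was higher and 1 lower in effector minus naive, and likewise in postmitotic minus effector. Of 6 erythroid and platelet markers, 1 was lower in effector than in naive cells. No marker of these lists was called in postmitotic against naive cells.

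The authors' deposited table selects probe sets at an unadjusted p under 0.01 and a fold over 1.5. By those criteria it holds Gzma, Gzmb, Gzmc, Gzmk, Gzmm, Prf1 and Nkg7 as higher in effector than in naive cells, and Gzma, Gzmb, Gzmk and Gzmm as higher in postmitotic than in naive cells. The authors' deposited table also lists Gzma, Gzmb, Gzmc, Gzmk, Prf1, Nkg7 and Ctsc as lower in postmitotic than in effector cells. Ctsw was not selected there, with folds of 1.40 and 1.33 for postmitotic cells that lie under the fold criterion.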

How the data were processed

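Trimmed-mean probe set signals were quantile-normalized to a naive array by the authors, per the deposited readme, and deposited as log2 values with 50 added to the signal, negatives set to 0, and 50 added again. Folds on this scale understate changes of dim genes. The authors' deposited p-values are unadjusted contrasts, and their deposited fold values are ratios made from group means, with a signed score for selected probe sets. No software version is given in the sources used here.

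Here limma 3.58.1 in R 4.3.3 (lmFit and eBayes, a mean per group, no covariate, 6 residual and 2.22 prior degrees of freedom) was run on 22626 probe sets, with Benjamini-Hochberg adjustment over all of them and a threshold of 0.05. The code was tested on simulated data. Symbols were updated through a RefSeq table (GRCm38.p6), which matched 20752 of 21259 probe sets with 1 gene; 826 named several genes and 541 none. All probe sets of a member are named. Of other genes, 10 were chosen by symbol, with up to 4 called genes per list and comparison that had the widest differences. The 3 genes most alike per member were added. Unc13d, 1 of those 10, had no probe set that named it alone, so no value is given for it. Members, lists and tests were chosen with earlier results of these data known, among them the arrays with male transcripts. Of each array's probe sets, 15.3% to 15.9% were at or below zero signal, and 3 arrays a group limit the precision. Series matrix values differed from the table by at most 5e-09. No genome, protein sequences or scanner files were used here. Some genes of the lists are counted but not reported here by name.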

Additional observations from a re-analysis of the deposited data

How the results depend on the processing

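The 18 alternatives were 1 probe set per gene, dim probe sets left out, values below zero signal raised to it, an offset of 16 in the log, a variance prior with trend and robust, the mean of a gene's probe sets, only the 6 arrays compared, the replicate block, each array left out, and both arrays with male transcripts left out. Of the 9 members' values in 18 alternatives each, 157 of 162 kept direction and call in effector minus naive, 156 in postmitotic minus effector and 129 in postmitotic minus naive, where 30 calls were lost. The members called in postmitotic minus naive, 6 of 9, became 2 with only 6 arrays and 1 without both arrays with male transcripts, 1 to 6 with single arrays left out, and 7 with the trended prior, which also called Ctsc lower (-0.34, adjusted p = 0.013); in effector minus naive and in postmitotic minus effector the 8 calls became 7 to 8. With the replicate block the counts were 8, 6 and 8, so it moved none of them. Replicate numbers were not taken as pairs in the main fit, because the labels do not state a pairing. Deviations of same-numbered arrays correlated between 0.00922 and 0.0707 over 9 pairs. Those of differently numbered arrays correlated between -0.0521 and 0.018 over 18 pairs. Of 18 choices of the closest array in another group, 16 had the same number. Both arrays with male transcripts also carry the same replicate number. Whether same-numbered arrays shared a pool or a batch was not tested. Over the whole array, the 1854 probe sets called in postmitotic minus naive became 2841 with values raised to zero signal, 3250 with the trended prior, 474 with 6 arrays, 1164 with the block, 859 to 1741 with single arrays left out and 293 without both arrays with male transcripts, which also took postmitotic minus effector from 4536 to 2507. Fewer arrays were fitted in the latter, and otherwise the cause was not tested.

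Signs changed for values near 0 that were not called, and for Bach2. In postmitotic minus naive these were Gzmc (-0.10) and Lamp1 (0.022), each without postmitotic replicate 3 and without both arrays with male transcripts, Runx3 without postmitotic replicate 2 (0.018) and Bach2 with the mean of its probe sets (0.047). With single arrays left out, Gzmc ran from -0.10 to 0.36, Lamp1 from -0.058 to 0.022 and Runx3 from -0.31 to 0.018. In postmitotic minus effector they were Gzmm without effector replicate 3 (0.0085), without postmitotic replicate 3 (0.088) and without both arrays with male transcripts (0.16), and Runx3 without postmitotic replicate 3 (-0.040), within ranges of -0.23 to 0.088 and -0.040 to 0.27. The offset of 16 gave larger values for dim genes, such as 2.82 for Gzmc and 1.67 for Gzmm in effector minus naive, without changing a member's call in that comparison.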
